A study of Mus musculus with 6 samples.

Results

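The expression of 31 genes of the complement system was compared between normal livers and liver tumors of mice. The set holds the complement components, the regulators and receptors of the cascade that were listed for this comparison, and its genes were found on the array by the gene name of the design or by the current symbol of the probe's accession. They were represented by 40 of the 55681 different probes of the array, and by 31 of the 34741 genes those probes name. The animals were male C3H/HeN mice of 74 to 75 weeks, a strain in which liver tumors arise spontaneously, and they were offspring of a control group that was kept on standard diet and tap water. Total RNA of 3 normal livers and of 3 liver tumors carrying a Ha-ras mutation was labelled with Cy3 and hybridised to 1 SurePrint G3 Mouse GE array per sample, a microarray of 60-base probes read with 1 dye. All 6 samples were whole tissue, so fewer cells of a type and less RNA per cell cannot be told apart in any value below. Nothing in the labels says that the samples came from different mice, and p-values then measure only the spread between these samples.

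Complement is a set of plasma and membrane proteins that tag and lyse microbes and clear damaged cells. The classical pathway starts with C1q bound to antibody, the lectin pathway starts with mannose-binding lectins or ficolins bound to sugars, and the alternative pathway amplifies C3 that is already cleaved. All routes cleave C3 and then C5, after which the terminal components assemble into a pore, and regulators restrain the cascade. Hepatocytes make most of the plasma components, whereas C1q, properdin and ficolin A come largely from macrophages, in the liver from Kupffer cells.

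The expression value used here is the processed signal of a probe divided by the 75th percentile of all spots of its array, as the authors scaled it, and a gene is given by its brightest probe. Values are given for the 3 normal livers and then for the 3 tumors, in the order of their replicate numbers, with n = 3 in each group. Changes are read between samples. Where values of different genes are ranked, divided or summed, they are probe signals and not transcript amounts. Fold changes, their standard errors (SE) and adjusted p-values are from limma on log2 values over all tested probes, adjusted by Benjamini-Hochberg, and a gene was called where its adjusted p was under 0.05. Where the 3 normal livers and 3 tumors did not overlap, the exact two-sided permutation test gave 0.1, which is the smallest p that 3 against 3 samples allow.

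Probes were well above background on 44.7% to 47.2% of the spots in the normal livers and on 47.3% to 48.9% in the tumors, and the number of saturated spots was 0. Slide 1 carried the normal livers and slide 2 the tumors, with a median local background of 42 to 45 and 22 to 23 respectively, so the effects of slide and of tissue cannot be told apart. Among the 15 hepatocyte markers, which were all well above background on every array, 6 were lower and 1 higher in the tumors, and albumin was called in neither direction (log2 fold change -0.059, limma adjusted p = 0.76).

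Of the 31 complement genes, 27 had a probe well above background in every sample of 1 group or both, and these were tested. Limma called 17 of the 27 lower in the tumors, where 21.0% of all 18545 tested genes were called lower, and 1 higher, where 13.1% of all were called higher. The single gene called higher was Cfi, complement factor I. The other 9 were not called. By 2-fold or more, 9 members were called lower (C8b, C9, Mbl1, C8a, C4b, Masp1, Fcna, Cfp and C1qc), beside 6.83% of all genes, and 0 were called higher, beside 7.78%. In 18 members every tumor lay below every normal liver, beside 33.5% of all genes, and in 1 member every tumor lay above, beside 18.3%. The median log2 fold change was -0.72 over the 27 members and -0.13 over all tested genes. With spike-in scaling, which sets the arrays by their added control RNA and moved the median of all genes up by 0.15 on the log2 scale, 11 members were called lower and 0 higher, while 59.9% of all calls pointed higher against 38.4% with the percentile. With quantile normalization the calls on C1qb, C1qc, C2, C3, C8g, Cfp and Vtn were lost. With every probe tested, dim ones included, these were lost as well, with those on Cd59a and Cfi.

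**Figure D1:**
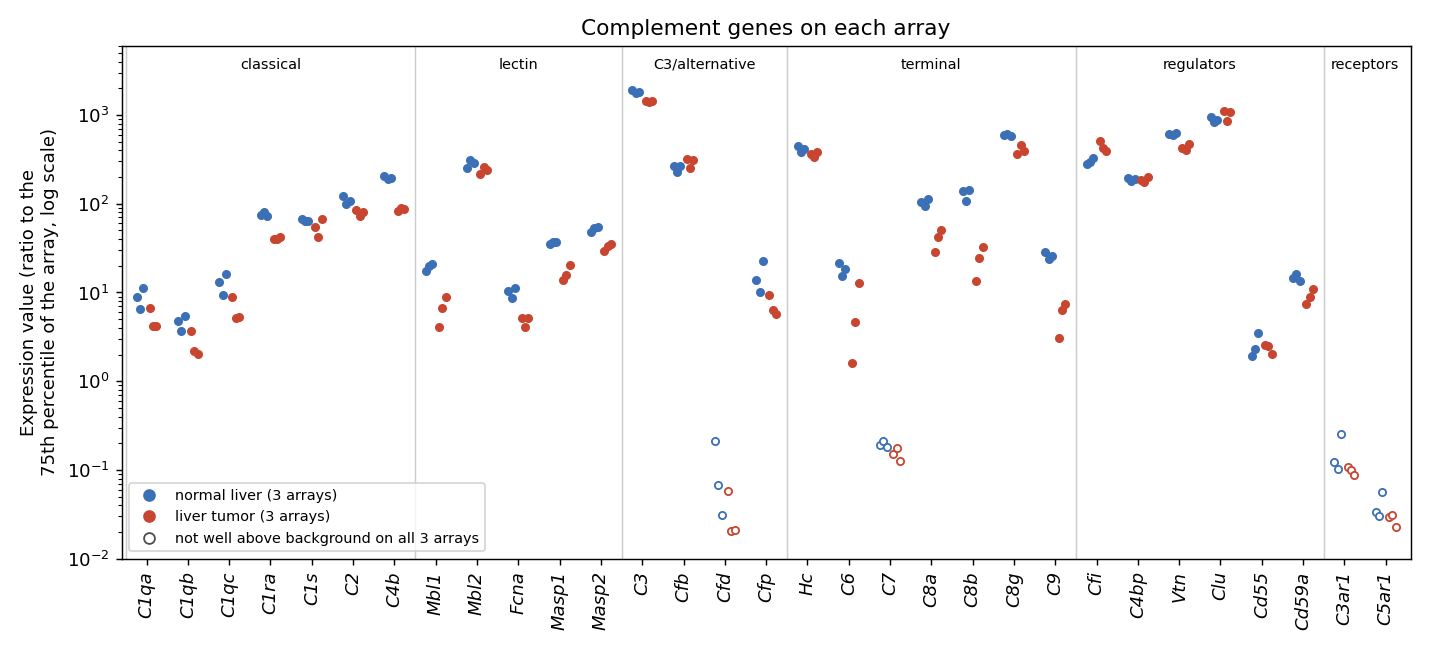
Expression value of each complement gene on each array, as a ratio to the array's 75th percentile on a log axis, with genes ordered by pathway. Blue points are the 3 normal livers, red points the 3 tumors, and open points a group in which the probe was not well above background on all 3 arrays. C8a, C8b, C9 and Mbl1 have all red points well below the blue ones, C6 has 1 red point close to them, and C4bp, Cfb and Clu overlap.

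**Figure D2:**
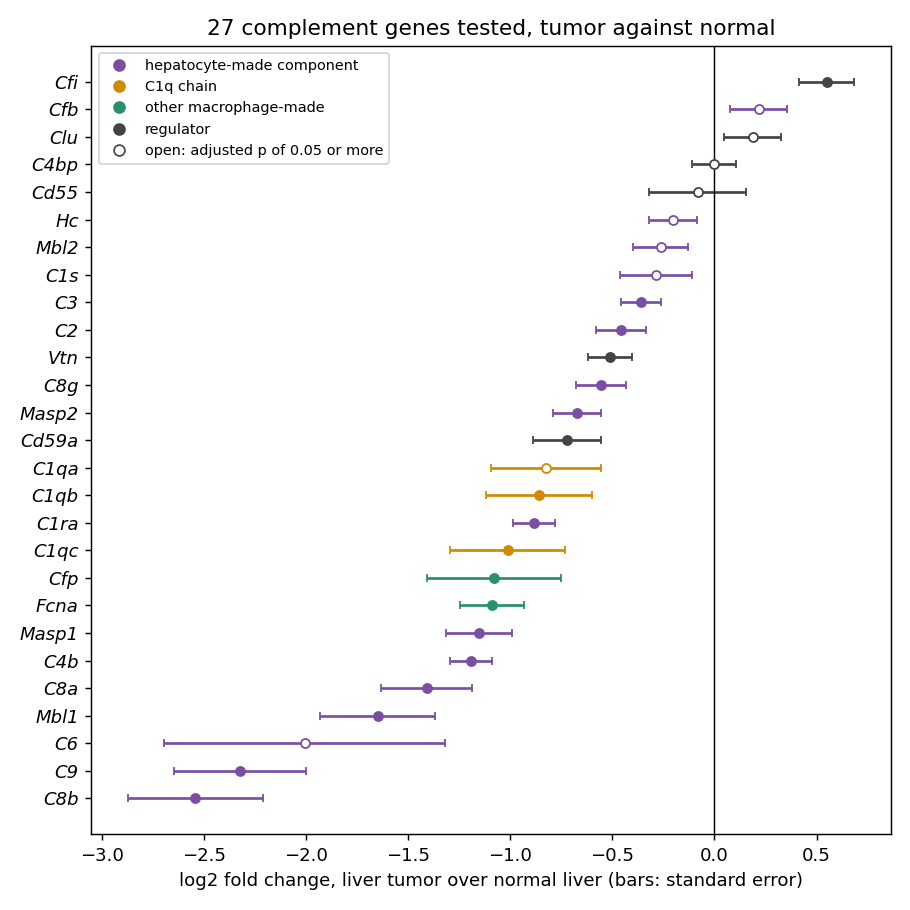
Log2 fold change of the 27 tested complement genes, tumor over normal, with the limma standard error as a bar. Filled points had an adjusted p under 0.05. C8b, C9 and C6 lie farthest to the left, C6 with an open point and a long bar, and Cfi is the only filled point to the right of 0.

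The promoters of 24 members were found in the RefSeq promoter table, and 5 of them are shown because their genes span the results, from the deepest falls (C8b and C9) over a small fall (C3) to genes that were not called (Hc and C4bp). Each sequence is the 250 bases before the start site used in that promoter table on GRCm38.p6, written 5′ to 3′ on the strand of the gene. C8b lies on the plus strand at chr4:104766067-104766316, C9 on the plus strand at chr15:6445096-6445345, C3 on the minus strand at chr17:57228137-57228386, Hc on the minus strand at chr2:35061413-35061662 and C4bp on the minus strand at chr1:130661619-130661868. The RefSeq span of Hc is chr2:34983329-35068506 and that of C4bp is chr1:130635921-130661657. The Hc window thus lies inside its gene, and the C4bp window reaches into its gene. For both, distances are counted from the start site of the promoter table and not from the end of the span. Capitals mark matches to the motifs described after the sequences.
C8b: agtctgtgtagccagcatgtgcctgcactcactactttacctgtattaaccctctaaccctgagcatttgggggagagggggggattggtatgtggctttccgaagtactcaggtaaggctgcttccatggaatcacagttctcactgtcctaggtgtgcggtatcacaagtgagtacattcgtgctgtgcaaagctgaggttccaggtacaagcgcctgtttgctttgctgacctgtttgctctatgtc
C9: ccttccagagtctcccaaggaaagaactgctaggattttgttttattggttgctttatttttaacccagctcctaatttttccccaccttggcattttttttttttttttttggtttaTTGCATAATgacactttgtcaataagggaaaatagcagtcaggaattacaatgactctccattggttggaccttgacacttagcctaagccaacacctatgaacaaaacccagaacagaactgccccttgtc
C3: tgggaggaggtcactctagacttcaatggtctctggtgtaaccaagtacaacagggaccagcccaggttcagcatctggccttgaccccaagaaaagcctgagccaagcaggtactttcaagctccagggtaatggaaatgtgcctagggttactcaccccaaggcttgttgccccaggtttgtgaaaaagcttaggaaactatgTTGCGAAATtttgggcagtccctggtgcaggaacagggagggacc
Hc: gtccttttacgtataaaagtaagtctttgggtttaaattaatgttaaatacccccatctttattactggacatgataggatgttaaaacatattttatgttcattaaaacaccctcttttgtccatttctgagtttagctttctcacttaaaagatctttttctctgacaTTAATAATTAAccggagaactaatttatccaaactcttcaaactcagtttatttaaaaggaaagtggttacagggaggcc
C4bp: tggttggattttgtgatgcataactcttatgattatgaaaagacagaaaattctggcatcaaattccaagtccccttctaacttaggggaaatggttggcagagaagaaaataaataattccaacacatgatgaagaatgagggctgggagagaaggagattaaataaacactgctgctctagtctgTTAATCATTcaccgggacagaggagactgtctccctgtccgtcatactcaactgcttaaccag

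Windows of 300 bases, 250 before and 50 after the start site, were searched on both strands for 3 motifs of factors known from liver and acute-phase genes. The C/EBP-type motif TTGCNNAAT was present in C9, C3 and C1s1, 3 of 24 members, and in 2.77% of the 27025 genes with a promoter. It began 132 bases before the start site in C9 and 45 before it in C3. The HNF1-type motif TTAATNATT was present in Hc and C4bp and in 1.72% of all genes. It began 63 bases before the start site in C4bp, and in Hc it was matched at 80 and at 78 bases before the start site, with the matches overlapping each other. No match of one motif overlapped a match of another. The STAT-type motif TTCNNNGAA was present in C1ra, C7, C8a, Masp2 and Vtn and in 9.55% of all genes. The C8b window held none of these letters. A match is a description of the letters and not a binding site, and genes with a match were found both among those called lower and among those not called.

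The terminal components, which build the membrane pore, held the deepest falls of the set. After C5, 5 of 6 components were tested. All 5 were below the normal livers in every tumor, beside 33.5% of all genes, and 4 were called lower, beside 21.0%. Their median log2 fold change of -2.01 is the value of C6, which was not called. C8b, the beta chain of C8, had expression values of 140, 106 and 143 in the normal livers and of 13.3, 24.6 and 32.8 in the tumors. The tumors were all far below the lowest normal liver, and the log2 fold change was -2.54 (SE 0.33, limma adjusted p = 0.00321), or 5.82-fold lower. C8b stands on the study's shortlist of genes, which was chosen on expression in these samples. The shortlist also required an inverse methylation change near the start site and a literature hit for cancer. The fall of C8b here is thus not independent evidence. C8a, the alpha chain of C8, had values of 106, 94.4 and 113 in the normal livers and of 28.4, 42.1 and 50.6 in the tumors, again without overlap (log2 fold change -1.41, SE 0.22, limma adjusted p = 0.0058). A second probe of C8a, which was dimmer, gave a log2 fold change of -0.83 (SE 0.18, limma adjusted p = 0.0158). C8a and C8b are neighbours on chromosome 4 in RefSeq, and the ratio of C8b to C8a was 1.13 to 1.32 in the normal livers and 0.471 to 0.648 in the tumors, so that the neighbours did not fall by the same factor with these probes. C8g, the gamma chain, is a lipocalin encoded on chromosome 2. It had values of 591, 617 and 575 in the normal livers and of 366, 456 and 396 in the tumors. The groups did not overlap, but the log2 fold change was only -0.55 (SE 0.12, limma adjusted p = 0.0163). This call was lost without normal liver 2 (adjusted p = 0.062), with spike-in scaling (log2 fold change -0.40, adjusted p = 0.305) and with quantile normalization (-0.40, adjusted p = 0.0546).

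C9, which polymerises to line the pore, had expression values of 28.9, 24.1 and 25.9 in the normal livers and of 3.08, 6.40 and 7.33 in the tumors. The highest tumor was far below the lowest normal liver, and the log2 fold change was -2.32 (SE 0.32, limma adjusted p = 0.00393). C6, which joins C5b after C5 is cleaved, had values of 21.6, 15.5 and 18.6 in the normal livers and of 1.62, 4.68 and 12.7 in the tumors. The tumors ranged widely and tumor 3 came close to the normal livers, so that the log2 fold change of -2.01 had a large error and was not called (SE 0.69, limma adjusted p = 0.0653). Without tumor 3 it was -2.74 and called (adjusted p = 0.012), and without tumor 1 it was -1.26 (adjusted p = 0.079). C6 was also called lower with spike-in scaling (-1.85, adjusted p = 0.0152), with normexp (-1.81, adjusted p = 0.0374) and with a trend in eBayes (adjusted p = 0.0421). Hc, the mouse gene of C5, had values of 451, 383 and 415 in the normal livers and of 364, 334 and 386 in the tumors. The groups overlapped and Hc was not called (log2 fold change -0.20, SE 0.12, limma adjusted p = 0.229). The ratio of C9 to Hc was 0.0624 to 0.0640 in the normal livers and 0.00847 to 0.0192 in the tumors. C7 was not tested, since its brighter probe was well above background in 2 normal livers and 2 tumors and its other probe on no array.

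**Figure D3:**
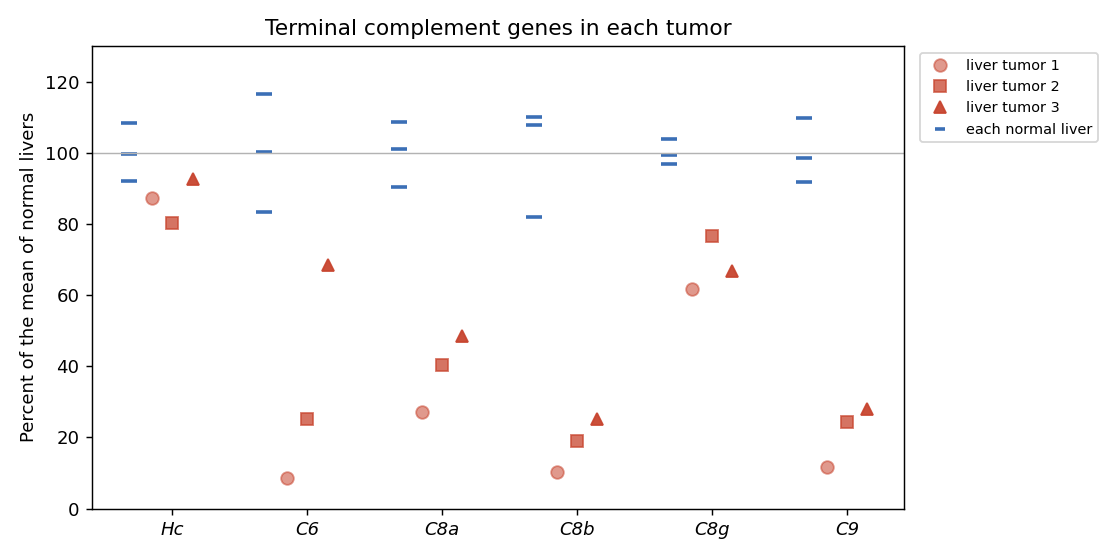
Expression value of 6 terminal components as a percent of the mean of the normal livers, with each normal liver as a blue dash and each tumor as its own red symbol. Tumor 1 is the lowest of the tumors for every gene shown but Hc, and C6 spreads from under 10 percent in tumor 1 to close to 70 percent in tumor 3.

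Probes of C9, C6 and Mbl1, which had low values in the tumors, of the C1q chain C1qb, and of C8a and Masp1, whose probes gave unlike fold changes, are shown so that their signals can be placed on the transcripts. Each is the 60-base probe of the array as the deposited files give it. For C8a and Masp1 they are dimmer probes, whose fold changes were smaller than those of the brightest probe.
C9: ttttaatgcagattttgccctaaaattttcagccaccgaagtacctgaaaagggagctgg
C6: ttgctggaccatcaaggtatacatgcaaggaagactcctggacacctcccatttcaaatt
C8a, dimmer probe: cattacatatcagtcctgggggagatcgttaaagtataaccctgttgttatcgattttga
Mbl1: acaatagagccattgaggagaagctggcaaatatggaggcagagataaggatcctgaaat
Masp1, dimmer probe: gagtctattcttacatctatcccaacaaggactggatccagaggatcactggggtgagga
Masp1, dimmest probe: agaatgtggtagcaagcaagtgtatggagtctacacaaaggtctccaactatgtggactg
C1qb: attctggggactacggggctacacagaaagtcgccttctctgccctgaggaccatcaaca

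Among the 16 hepatocyte-made components, tumor 1 was the lowest tumor in 10 and tumor 2 in the other 6, whereas among all tested genes tumor 1 was lowest in 35.7%. Components of 1 sample share its RNA, so these counts describe the samples and are not replicate observations.

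In the lectin pathway, 4 of 5 members were called lower, beside 21.0% of all genes, and the fifth, Mbl2, was not called. Mbl1, which encodes mannose-binding lectin A, had expression values of 17.6, 20.1 and 21.2 in the normal livers and of 4.07, 6.77 and 8.83 in the tumors. Every tumor lay below every normal liver, and the log2 fold change was -1.65 (SE 0.28, limma adjusted p = 0.00727). Mbl2, which encodes mannose-binding lectin C, had values of 254, 314 and 291 in the normal livers and of 215, 260 and 241 in the tumors. Here the groups overlapped (log2 fold change -0.26, SE 0.13, limma adjusted p = 0.177). The ratio of Mbl1 to Mbl2 was 0.0640 to 0.0727 in the normal livers and 0.0189 to 0.0367 in the tumors, so that the lectins differed in their change. Masp1, a serine protease that binds these lectins, had values of 35.4, 37.1 and 36.9 in the normal livers and of 13.8, 15.7 and 20.3 in the tumors. The groups were far apart on this probe, with a log2 fold change of -1.15 (SE 0.16, limma adjusted p = 0.00392). The dimmer and the dimmest of the 3 Masp1 probes gave log2 fold changes of -0.83 and -0.53 with adjusted p of 0.00384 and 0.0227 in limma. Masp2, the protease that cleaves C4 and C2, had values of 48.5, 53.2 and 54.8 in the normal livers and of 29.6, 33.7 and 34.8 in the tumors. The tumors were all lower, with a log2 fold change of -0.67 (SE 0.12, limma adjusted p = 0.00774). Another of the 3 Masp2 probes was also called lower (-0.60), and the dimmest was not (-0.40, limma adjusted p = 0.245), and with spike-in scaling the call on the brightest was lost (-0.52, adjusted p = 0.159).

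Among the classical components made by hepatocytes, C4b and C1ra fell most. C4b, which encodes complement C4, had expression values of 206, 188 and 197 in the normal livers and of 82.8, 89.4 and 86.8 in the tumors. The values were tight in both groups and did not overlap, giving a log2 fold change of -1.19 (SE 0.10, limma adjusted p = 0.000755). The near-identical gene C4a had no probe named for it, and a contribution of its transcripts to this signal was not tested. C1ra, a protease of the C1 complex, had values of 75.3, 80.0 and 72.3 in the normal livers and of 40.5, 40.2 and 42.6 in the tumors. The groups were again tight and apart, with a log2 fold change of -0.88 (SE 0.10, limma adjusted p = 0.00218), and a second probe gave -0.95. Its near-identical copy C1rb fell by 0.95 on the log2 scale as well, and how far the probes of the pair share transcripts was not tested. C1s, listed in RefSeq as C1s1, encodes the protease that C1r activates. It had values of 67.5, 64.7 and 64.2 in the normal livers and of 54.3, 42.5 and 67.1 in the tumors. The tumors varied and overlapped the normal livers, and C1s was not called (log2 fold change -0.28, SE 0.18, limma adjusted p = 0.259). C1ra and C1s1 are neighbours on chromosome 6, and their ratio was 1.12 to 1.24 in the normal livers and 0.634 to 0.946 in the tumors.

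C2 and Cfb encode homologous proteases of the classical and alternative pathways and lie next to each other on chromosome 17. C2 had expression values of 120.7, 100.5 and 106.9 in the normal livers and of 84.5, 72.6 and 81.5 in the tumors. The tumors were all lower and C2 was called (log2 fold change -0.46, SE 0.12, limma adjusted p = 0.0323). Cfb, factor B, had values of 268, 227 and 266 in the normal livers and of 321, 254 and 310 in the tumors. The groups overlapped and Cfb was not called (log2 fold change 0.22, SE 0.14, limma adjusted p = 0.276). The ratio of Cfb to C2 was 2.22 to 2.49 in the normal livers and 3.50 to 3.80 in the tumors. The call on C2 was lost when any 1 array but that of tumor 1 was left out (adjusted p = 0.060 to 0.10), with spike-in scaling (-0.30, adjusted p = 0.399) and with quantile normalization (-0.24, adjusted p = 0.199).

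C3, on which all pathways meet, had expression values of 1921, 1773 and 1806 in the normal livers and of 1438, 1396 and 1450 in the tumors. The groups did not overlap, and C3 was called lower by a small margin (log2 fold change -0.36, SE 0.10, limma adjusted p = 0.0344). A second C3 probe gave -0.35 and was not called (adjusted p = 0.0567). The call on the first probe was lost when any 1 of the 6 arrays was left out (adjusted p = 0.065 to 0.103), with spike-in scaling (-0.21, adjusted p = 0.608), with quantile normalization (-0.093, adjusted p = 0.497) and with normexp (-0.27, adjusted p = 0.0603). Cfd, the adipsin protease that cleaves factor B and is made by fat tissue in mice, was well above background in 1 normal liver and no tumor and was not tested. Of the 5 adipocyte markers, Adipoq, Plin1, Lep and Retn were not well above background on any array, and Cidec, a lipid droplet gene, was well above background on all 6 and called higher (log2 fold change 4.32, limma adjusted p = 0.000644).

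Over the 16 hepatocyte-made components, 11 were called lower and 0 higher, beside 21.0% and 13.1% of all genes. Their median log2 fold change was -0.78, beside -0.35 over the 15 hepatocyte markers and -0.13 over all tested genes. The 5 that were not called were C1s, Hc, C6, Cfb and Mbl2. The summed expression value of the hepatocyte markers was 12538 to 13400 in the normal livers and 11487 to 11974 in the tumors, and its part in the results on the components was not tested.

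The chains of C1q, the recognition protein of the classical pathway, are encoded side by side on chromosome 4. C1qa had expression values of 8.82, 6.47 and 11.3 in the normal livers and of 6.66, 4.19 and 4.17 in the tumors. Tumor 1 lay above normal liver 2, and C1qa was not called (log2 fold change -0.82, SE 0.27, limma adjusted p = 0.0574). C1qb had values of 4.82, 3.73 and 5.41 in the normal livers and of 3.67, 2.18 and 2.04 in the tumors. The groups touched without overlap between normal liver 2 and tumor 1, and C1qb was called lower (log2 fold change -0.86, SE 0.26, limma adjusted p = 0.046). C1qc had values of 13.1, 9.36 and 16.2 in the normal livers and of 8.83, 5.12 and 5.31 in the tumors. The tumors were all lower, again with tumor 1 close to normal liver 2 (log2 fold change -1.01, SE 0.28, limma adjusted p = 0.036). The ratio of C1qa to C1qb was 1.74 to 2.08 in the normal livers and 1.82 to 2.04 in the tumors, and that of C1qc to C1qb was 2.51 to 2.99 and 2.35 to 2.61, with overlap in both. The number of C1q chains called lower was 0 to 3 as each array was left out in turn. The call on C1qb was lost without any 1 array but that of tumor 1, and that on C1qc without normal liver 1, normal liver 3, tumor 2 or tumor 3. The call on C1qb was also lost with spike-in scaling (-0.70, adjusted p = 0.083), whereas C1qa was called lower with normexp (adjusted p = 0.0305) and with a trend in eBayes (adjusted p = 0.0358), and without normal liver 2 or tumor 1.

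Properdin (Cfp), which stabilises the alternative pathway convertase, and ficolin A (Fcna), a lectin pathway sensor, are likewise made largely by macrophages. Cfp had expression values of 13.7, 10.2 and 22.6 in the normal livers and of 9.43, 6.27 and 5.65 in the tumors. The tumors were all lower than normal liver 2, the lowest normal liver, and Cfp was called (log2 fold change -1.08, SE 0.33, limma adjusted p = 0.0467), but not without normal liver 1, normal liver 3, tumor 2 or tumor 3 (adjusted p = 0.094 to 0.122). Fcna had values of 10.5, 8.68 and 11.4 in the normal livers and of 5.15, 4.10 and 5.10 in the tumors. Here the groups were well apart, with a log2 fold change of -1.09 (SE 0.16, limma adjusted p = 0.00422), and the call held in limma whichever array was left out. In all 5 of these macrophage-made members normal liver 2 was the lowest and normal liver 3 the highest normal liver, and tumor 1 was the highest tumor. Tumor 1 was thus at the other end of the tumors than for most hepatocyte-made components. Among all tested genes normal liver 2 was the lowest normal liver in 25.1% and tumor 1 the highest tumor in 37.3%. The order was not particular to these members. Of 18 tested macrophage markers, normal liver 3 was the highest normal liver in 17 and tumor 1 the highest tumor in 15. Genes of 1 sample share its RNA, so these counts are not replicate observations.

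Macrophage markers were mostly lower, as these genes were, but not all of them. Of 20 markers, 18 were tested. In the tumors 9 were called lower, 3 were called higher and 6 were not called, beside 21.0% of all genes lower and 13.1% higher. The median log2 fold change of the markers was -0.86, next to -1.01 over C1q, Cfp and Fcna. Among the markers with the brightest probes, Cd5l fell by 1.08 on the log2 scale, and Csf1r, the receptor of the macrophage growth factor, fell by 0.81. Mpeg1, whose probe was at least as bright over the 6 arrays, rose by 1.46. Clec4f, a Kupffer cell marker, fell by 1.84. Its values in the tumors were 2.86, 4.90 and 6.94, lowest in tumor 1, which was the highest tumor for the C1q chains. In this Clec4f was the exception. Tumor 1 was the lowest tumor in only 1 of the 18 tested markers and the highest in 15. The markers called higher were Cd14 (3.54), Cx3cr1 (1.53) and Mpeg1 (1.46, with values of 14.6 to 24.8 in the normal livers and 38.4 to 61.0 in the tumors). The summed expression value of the list was 134 to 230 in the normal livers and 116 to 180 in the tumors, no marker was below background on every array, and the part of macrophage number in the C1q result was not tested. The geometric mean of the C1q chains over Csf1r was 0.188 to 0.235 in the normal livers and 0.191 to 0.235 in the tumors. The 3 chains over Cd68 gave 1.49 to 1.83 and 1.24 to 1.63, and over Vsig4, a complement receptor of Kupffer cells, 0.363 to 0.446 and 0.429 to 0.625. The groups overlapped on each of these scales, and the log2 difference of tumor minus normal was -0.084 over Csf1r, -0.25 over Cd68 and 0.37 over Vsig4.

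**Figure D4:**
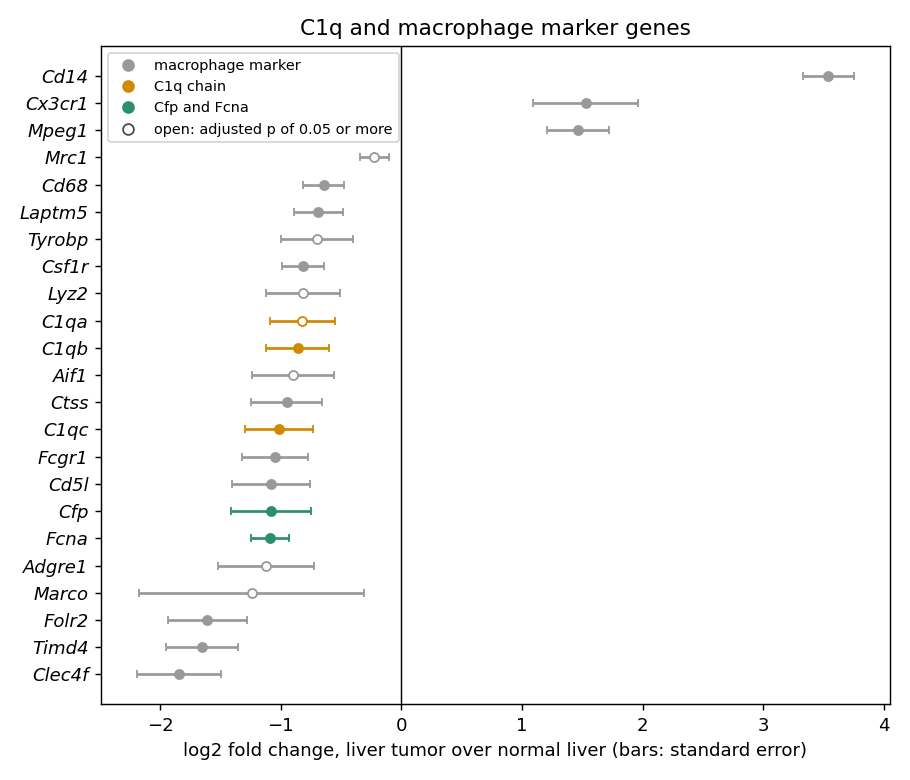
Log2 fold change, tumor over normal, of the C1q chains, Cfp, Fcna and the 18 tested macrophage markers, with the limma standard error as a bar and filled points for an adjusted p under 0.05. The complement genes sit among the markers between -0.82 and -1.09, and Cd14, Cx3cr1 and Mpeg1 stand apart on the right.

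Beside 21.0% of all genes called lower and 13.1% higher, 2 of the 6 regulators were called lower, 1 higher and 3 not. Their median log2 fold change was -0.043 and turned positive with spike-in scaling (0.11), with quantile normalization (0.091), with normexp (0.014) and without normal liver 3 (0.082). Cfi, the protease that inactivates C3b and C4b, had expression values of 282, 296 and 326 in the normal livers and of 508, 422 and 397 in the tumors. Every tumor lay above every normal liver, and the log2 fold change was 0.55 (SE 0.14, limma adjusted p = 0.024). Its call was lost without normal liver 1, normal liver 2, tumor 1 or tumor 2 (adjusted p = 0.054 to 0.078), and with spike-in scaling it missed the threshold (0.70, adjusted p = 0.0544). C4bp, the C4b-binding cofactor of factor I, had values of 193, 180 and 190 in the normal livers and of 183, 177 and 202 in the tumors. These groups overlapped throughout, with a log2 fold change of -0.0038 (SE 0.11, limma adjusted p = 0.982) whose sign depended on the scaling (0.15 with spike-in controls). The ratio of Cfi to C4bp was 1.46 to 1.72 in the normal livers and 1.97 to 2.77 in the tumors.

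Vtn, vitronectin, which keeps the forming pore out of membranes, had expression values of 618, 600 and 621 in the normal livers and of 422, 401 and 468 in the tumors. The groups did not overlap, and Vtn was called lower (log2 fold change -0.51, SE 0.11, limma adjusted p = 0.0146), though not without tumor 2 (adjusted p = 0.052), with spike-in scaling (-0.36, adjusted p = 0.321) or with quantile normalization (-0.35, adjusted p = 0.0766). Clu, clusterin, which shares this role, had values of 947, 836 and 887 in the normal livers and of 1117, 862 and 1074 in the tumors. Tumor 2 lay within the normal livers and Clu was not called (log2 fold change 0.19, SE 0.14, limma adjusted p = 0.337), except with quantile normalization, where it was called higher. Cd59a, the membrane protein that blocks C9 from joining the pore, had values of 14.5, 16.2 and 13.5 in the normal livers and of 7.40, 8.86 and 10.8 in the tumors. All tumors were lower (log2 fold change -0.72, SE 0.17, limma adjusted p = 0.0195), with the call lost without normal liver 1, normal liver 2 or tumor 2 (adjusted p = 0.053 to 0.070) and with spike-in scaling (-0.57, adjusted p = 0.135). Cd55, which speeds the decay of convertases, had values of 1.90, 2.31 and 3.46 in the normal livers and of 2.54, 2.51 and 2.01 in the tumors. The groups overlapped (log2 fold change -0.082, SE 0.24, limma adjusted p = 0.815), and the sign turned with spike-in scaling (0.072) and without normal liver 3 (0.16) or tumor 3 (0.028).

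The anaphylatoxin receptors, which bind C3a and C5a on myeloid cells, were at the edge of detection. C3ar1 was well above background in 1 normal liver and no tumor, and C5ar1 on no array, so that neither was tested.

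The rest of the pathway was read from a list of 31 complement genes that are not members. Of these, 30 had a probe and 25 were tested. Limma called 14 lower and 1 higher, beside 21.0% and 13.1% of all genes, and the median log2 fold change was -0.53. Susd4, Colec10 and Colec12 had some of the largest changes among the called genes. Susd4, a complement inhibitor with sushi domains, had expression values of 83.8, 82.5 and 86.7 in the normal livers and of 0.465, 8.07 and 10.9 in the tumors. The tumors differed widely from each other and were all far lower, with a log2 fold change of -4.61 (SE 1.14, limma adjusted p = 0.0242). Colec10, a collectin that activates the lectin pathway, fell by 1.95 on the log2 scale. Colec12, a scavenger receptor collectin, fell by 1.73. Susd4 had its lowest value in tumor 1, as had C6, C8b and C9.

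**Figure D5:**
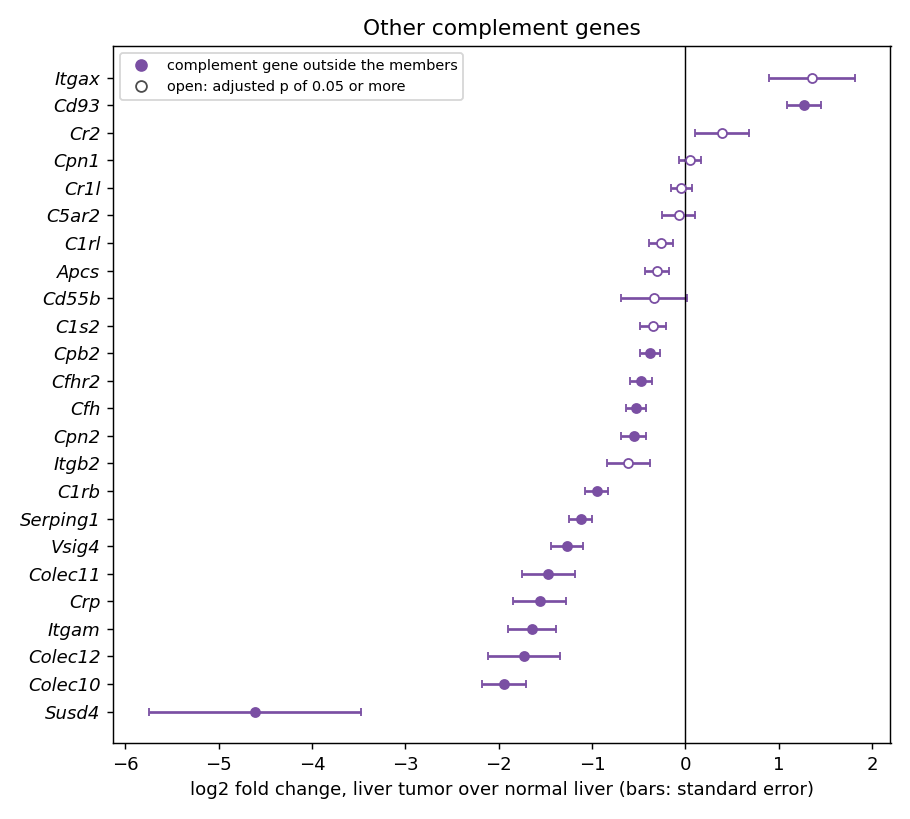
Log2 fold change, tumor over normal, of 24 of the 25 tested complement genes outside the members, with the limma standard error as a bar and filled points for an adjusted p under 0.05. Susd4 lies farthest to the left at -4.61 with the widest bar, and Cd93 is the only filled point to the right of 0.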

How the data were processed

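Total RNA of 3 normal livers and 3 liver tumors was measured on 1-color arrays. The authors deposited Feature Extraction output (version 10.7.3.1 by the file headers, 12.0.3.1 by the submitters' processing notes), whose processed intensity is background subtracted and spatially detrended. They also deposited a table of the ratio of that signal to the 75th percentile of each array.

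Each intensity was divided by the 75th percentile of all spots of its array and taken to log2. Control and outlier spots were dropped and spots of a probe averaged. Probes well above background in every sample of a group, 24901 in all, were tested with limma 3.58.1 in R 4.3.3 (lmFit and eBayes, two-sided, Benjamini-Hochberg over all tested probes, threshold 0.05). A gene was given by its brightest probe (mean log2 over the 6 arrays). Tables and figures were made with Python 3.11.15, matplotlib 3.10.9, numpy 2.4.6, pandas 2.3.3 and scipy 1.17.1. Probe names came from RefSeq on GRCm38.p6 through the accession for 27235 probes, the symbol for 3581 and a synonym for 565, and 24300 kept the design name. All 31 members were located there, and promoter sequences are from the same release.

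The members, the other lists and the genes named (all members, the 4 called genes with the largest change of each pathway list and up to 2 abundant markers, with the 3 macrophage markers called higher and single genes of other counts added after their values were seen) were chosen with earlier results of these data known. 1 gene that this rule names is not reported here. No list was tested as a set. The fit was tested on simulated data of 3 against 3 samples, in which 200 of 24889 probes were changed. It called 44.8% of 2-fold, 79.1% of 4-fold and 93.9% of 8-fold changes, with 5 false calls. In the data a far larger share was called, 21.0% of all genes lower and 13.1% higher. The Benjamini-Hochberg cut depends on that share, so these rates do not carry over to the data. A gene that was not called can still differ. The number of arrays limits the precision.

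Alternatives were normexp with an offset of 50, quantile normalization, spike-in scaling, no filter and a stricter filter, the deposited ratios, eBayes with a trend, the replicate number as a block, an average over the probes of a gene, the methods' t-test in its unpaired and paired forms, and leaving out each array.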

Additional observations from a re-analysis of the deposited data

How the results depend on the processing

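Of 513 comparisons of a member with an alternative setting, 398 kept the direction and the side of the threshold, 92 kept the direction and lost the call, 13 gained a call and 10 reversed. C1ra, C4b, C8a, C8b, C9, Fcna, Masp1 and Mbl1 were called lower under every limma alternative. The cause of the other changes was not tested. Of the 10 reversals, 7 were of C4bp and 3 of Cd55. C4bp was at 0.080 with normexp, 0.19 with quantile normalization, 0.15 with spike-in scaling, and -0.059 to 0.037 as each array was left out. Cd55 was at 0.072 with spike-in scaling and -0.27 to 0.16 with an array left out. The regulators' median, which is not among the 513 comparisons, also changed sign. It was 0.014 with normexp, 0.091 with quantile normalization, 0.11 with spike-in scaling and -0.13 to 0.082 with an array left out.

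With quantile normalization, 10 members were lower and 2 higher (Cfi and Clu), the members' median was -0.61 and that of the hepatocyte-made components -0.57, 0 C1q chains were lower, 1 regulator was lower and 2 were higher, and the median of the other complement genes was -0.33, against -0.41 with normexp. With spike-in scaling, 11 members were lower and 0 higher with a median of -0.57, the hepatocyte-made median was -0.62, 1 C1q chain was lower, 0 regulators were called either way, 2 other complement genes were higher with a median of -0.37, and 1576 of all genes were lower. Without the filter on dim probes, which raised the genes tested to 34741, 1614 genes were higher and 1887 lower, 9 members were lower and 0 higher, 0 C1q chains and 0 regulators were called, and 8 other complement genes were lower with a median of -0.43.

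The replicate numbers are shared by the groups, and the deviations of same-numbered samples correlated at 0.0687, 0.132 and 0.0506. With 3 samples in each group, these values cannot decide whether same-numbered samples share more than a number. With the replicate number as a block, 2205 genes were higher and 3201 lower, against 2432 and 3901, and 14 members were lower and 0 higher, with 1 C1q chain lower and 0 regulators higher. Tumors 1 and 2 correlated best with the normal liver of their own number, whereas tumor 3 correlated best, at 0.0550, with normal liver 2. The methods' t-test in its paired form called 14 members lower and 1 higher unadjusted (Cfb, which is the 1 hepatocyte-made component called higher), with 0 C1q chains lower and 1 regulator lower and 0 higher. After Benjamini-Hochberg the paired t-test called 0 of all genes in either direction, hence 0 of every list, against 1872 genes higher and 3887 lower unadjusted. The unpaired t-test after adjustment called 12 members lower and 0 higher, 0 C1q chains, 1 regulator lower and 0 higher, and 1367 of all genes higher.

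As each array was left out in turn, 10 to 17 members were called lower and 0 to 1 higher with a median of -0.73 to -0.61, 0 to 3 C1q chains were lower, 0 to 2 regulators lower and 0 to 1 higher, 9 to 13 other complement genes lower and 1 to 2 higher with a median of -0.56 to -0.49, and 2007 (without normal liver 2) to 3338 of all genes lower. The fewest members lower, 10, came without tumor 2.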

Other observations

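Genes linked to the induction of complement in the liver, not all of them inducers, were listed as well. They range from liver transcription factors to cytokines, their receptors and Socs3. Of 21 genes, 17 were tested. In the tumors 5 were called lower and 3 higher, beside 21.0% and 13.1% of all genes. The median log2 fold change of the list was -0.27, beside -0.13 over all tested genes. Whether the list differed from all genes was not tested. The called genes with the largest changes are given first. The interferon gamma receptor chain Ifngr1 had expression values of 5.97, 5.74 and 6.11 in the normal livers and of 15.98, 17.5 and 16.9 in the tumors, with both groups tight and apart (log2 fold change 1.5, SE 0.10, limma adjusted p = 0.000323). The oncostatin M receptor Osmr rose by 1.25 on the log2 scale (limma adjusted p = 0.00871). Nr1h4, the bile acid receptor FXR, fell by 1.22 (limma adjusted p = 0.0101), and the interleukin 1 receptor Il1r1 fell by 0.96 (limma adjusted p = 0.0101). The ligands Il6, Tnf, Ifng and Osm were not well above background on any array. The ligand Il1b was well above background in 3 normal livers and 2 tumors and was not called (log2 fold change -0.94, SE 0.55, limma adjusted p = 0.236).

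Markers of other cells moved in part with the same groups. Their counts stand beside 21.0% of all genes called lower and 13.1% called higher. The 10 stellate cell and fibroblast markers had a summed expression value of 89.0 to 106 in the normal livers and of 30.2 to 50.4 in the tumors, which was mostly decorin (Dcn), with 5 called lower and 2 higher. Of 10 neutrophil markers 6 were tested and 0 called in limma, with 1 at an unadjusted p under 0.05. Of 8 endothelial markers 2 were called lower, Clec4g and Stab2, and the dimmer probes of Stab2 were not called (log2 fold changes 0.024 and 0.088). Of 9 lymphocyte markers 4 were tested and 1, Cd4, was called higher on its brightest probe (log2 fold change 1.59, limma adjusted p = 0.0032), while a dimmer Cd4 probe was called lower (-0.48, limma adjusted p = 0.0383). Of 5 adipocyte markers 1 was tested, Cidec, and it was called higher.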
